A study of Mus musculus with 2 samples.

Results

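The GABA-A receptor subunit genes Gabra2, Gabra3, Gabra4, Gabra5, Gabrb1, Gabrb2 and Gabrd were examined in left cerebral cortex from 2 male mice. They were taken as a list of 7 named genes among the 55536 genes annotated in the gene tables, and 9 further GABA-A subunit genes were used for context. Per the labels, both animals were 8 to 10 months old, came from a cross of the 5xFAD strain with the CAST strain, and gave 300 ng of total RNA each to a directional, ribosomal RNA-depleted library with spike-in RNA. The 2 libraries are biological replicates 1 and 2 of a single group. 5xFAD mice carry mutant human amyloid precursor protein and presenilin 1 transgenes under the neuronal Thy1 promoter, and CAST is a wild-derived inbred strain. The labels give no genotype beyond the strain name, and no animals without the 5xFAD background were analysed here, so no effect of the transgenes can be read from the values. With 2 samples in 1 group there was no contrast, and every ± value is an SD with n = 2.

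GABA-A receptors are chloride channels built of subunits around a central pore, most often alpha, beta and either gamma or delta subunits, and they carry most fast inhibition in the cortex. Receptors with alpha2 or alpha3 and a gamma subunit are gathered at synapses by the scaffold gephyrin. Alpha4 with delta, and most alpha5-containing receptors, lie largely outside synapses and respond to ambient GABA with a sustained, tonic current. The alpha subunit sets whether classical benzodiazepines can act, and the beta subunit sets the response to etomidate. The binding and gating sites of the receptor lie at subunit interfaces, so which subunits are present matters for its pharmacology.

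The subunits differ at the codon for 1 residue known for each of these drug responses, and those stretches are shown because they divide the members into the classes used below. The sequences are coding stretches of 63 bases of the mm10 reference, 5′ to 3′ on the coding strand, from consensus coding transcripts, with that codon in capitals. They are reference sequence, not sequence of these animals. Among the alpha subunits the codon was a histidine codon in Gabra2, Gabra3 and Gabra5, the class on which classical benzodiazepines act, and an arginine codon in Gabra4, whose receptors are insensitive to them.
Gabra2: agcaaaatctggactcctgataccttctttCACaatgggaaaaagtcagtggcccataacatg
Gabra3: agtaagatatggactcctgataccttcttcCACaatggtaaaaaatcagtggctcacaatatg
Gabra5: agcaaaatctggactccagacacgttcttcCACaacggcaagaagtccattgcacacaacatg
Gabra4: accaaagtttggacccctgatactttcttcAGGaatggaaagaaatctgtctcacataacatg
Between the beta members the codon was a serine codon in Gabrb1 and an asparagine codon in Gabrb2, the residue in the pore-lining region that etomidate action depends on.
Gabrb1: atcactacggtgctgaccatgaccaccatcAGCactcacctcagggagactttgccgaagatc
Gabrb2: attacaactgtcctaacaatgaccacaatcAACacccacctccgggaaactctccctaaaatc
The alpha codons lie in exon 5 of 10 in Gabra2 (chr5:71014505-71014507), Gabra3 (chrX:72501168-72501170) and Gabra5 (chr7:57488891-57488893), and in exon 4 of 9 in Gabra4 (chr5:71641152-71641154), all on the minus strand. The beta codons lie on the plus strand, in exon 8 of 9 of Gabrb1 (chr5:72121981-72121983) and in exon 9 of 10 of Gabrb2 (chr11:42597573-42597575). Gabra2 and Gabra3 shared 54 of the 63 bases of the stretch, and Gabra4 shared 45 with Gabra3, 45 with Gabra5 and 47 with Gabra2. Over the aligned coding sequence, identity among the 4 alpha members ran from 66.6% between Gabra2 and Gabra4 to 73.0% between Gabra2 and Gabra3, and Gabrb1 and Gabrb2 were 72.3% identical.

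In mm10, Gabra2 (ENSMUSG00000000560.9) spans chr5:70957597-71095849, Gabra4 (ENSMUSG00000029211.11) chr5:71569749-71658308 and Gabrb1 (ENSMUSG00000029212.11) chr5:71658113-72149037, within the same gene cluster. Gabra3 (ENSMUSG00000031343.13) spans chrX:72432681-72656848, Gabra5 (ENSMUSG00000055078.7) chr7:57407672-57510059, Gabrb2 (ENSMUSG00000007653.12) chr11:42419757-42629028 and Gabrd (ENSMUSG00000029054.8) chr4:155384980-155398112. Gabrb1 and Gabrb2 lie on the plus strand and the other 5 on the minus strand.

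Few stretches of the members' transcripts were shared with other genes. Of all 100-base stretches of each gene's transcripts, 0 of those of Gabra3, Gabra4, Gabrb1, Gabrb2 and Gabrd occurred in a transcript of another gene, and 0.139% of those of Gabra2 did. For Gabra5 the share was 1.91%, all in Gm9962, an antisense transcript that overlaps 148 of its exon bases. That antisense gene held 53 and 24 reads against 1122 and 1090 for Gabra5. The kit was directional, but whether the counting used strand is not given in the sources used here.

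Levels are given as TPM, a measure that divides reads by transcript length and scales each library to the same total, so that genes can be compared with each other. Gabrb2 was the most abundant of the 7 genes, Gabra5 the least, and the other 5 lay within a narrow band. Gabra4, the alpha subunit of cortical and thalamic extrasynaptic receptors, stood at 41.7 TPM in replicate 1 and 46.8 TPM in replicate 2, a mean of 44.3 ± 3.60 TPM. Gabra3, a synaptic alpha subunit of cortical and monoaminergic neurons, reached 38.5 and 39.9 TPM, a mean of 39.2 ± 1.01 TPM. The mean of Gabra4 was thus 1.13 times that of Gabra3, and both animals' values of Gabra4 lay above both values of Gabra3. The authors' deposited credibility intervals overlapped in replicate 1, at 37.3 to 44.5 TPM for Gabra4 and 35.7 to 40.1 TPM for Gabra3. In replicate 2 they did not.

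Gabra2, the synaptic alpha subunit linked to the axon initial segment of pyramidal cells and to the anxiolytic action of benzodiazepines, was found at 30.6 and 32.8 TPM, a mean of 31.7 ± 1.51 TPM. Gabra5, the alpha subunit of most tonic inhibition in hippocampal pyramidal cells, was lowest at 17.8 and 19.6 TPM, a mean of 18.7 ± 1.27 TPM. In the alpha order Gabra4, Gabra3, Gabra2, Gabra5 the ranges of neighbours did not overlap between the animals, and the step from Gabra2 to Gabra5 was the widest at 1.69-fold. The kallisto-format table, a second quantification of the same libraries, kept Gabra3 above Gabra2 and Gabra2 above Gabra5 but not the top of the order. There Gabra3 was at 48.1 and 41.2 TPM and Gabra4 at 45.0 and 44.6 TPM, so that the higher of the pair differed by animal.

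Gabra6, the alpha subunit of cerebellar granule cells, had 0 reads in each library, which allows up to 3 reads, or 0.0880 and 0.0922 CPM (reads scaled by the total alone). Counted by the drug-response codon, the 3 histidine members together held 2.08 times the TPM of Gabra4 in replicate 1 and 1.97 times in replicate 2. This sets a sum of 3 genes against a single gene. Each histidine member had a lower mean TPM than Gabra4, at 39.2 for Gabra3, 31.7 for Gabra2 and 18.7 for Gabra5 against 44.3. The sum covers the members alone and is not a total of the histidine class.

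**Figure D1:**
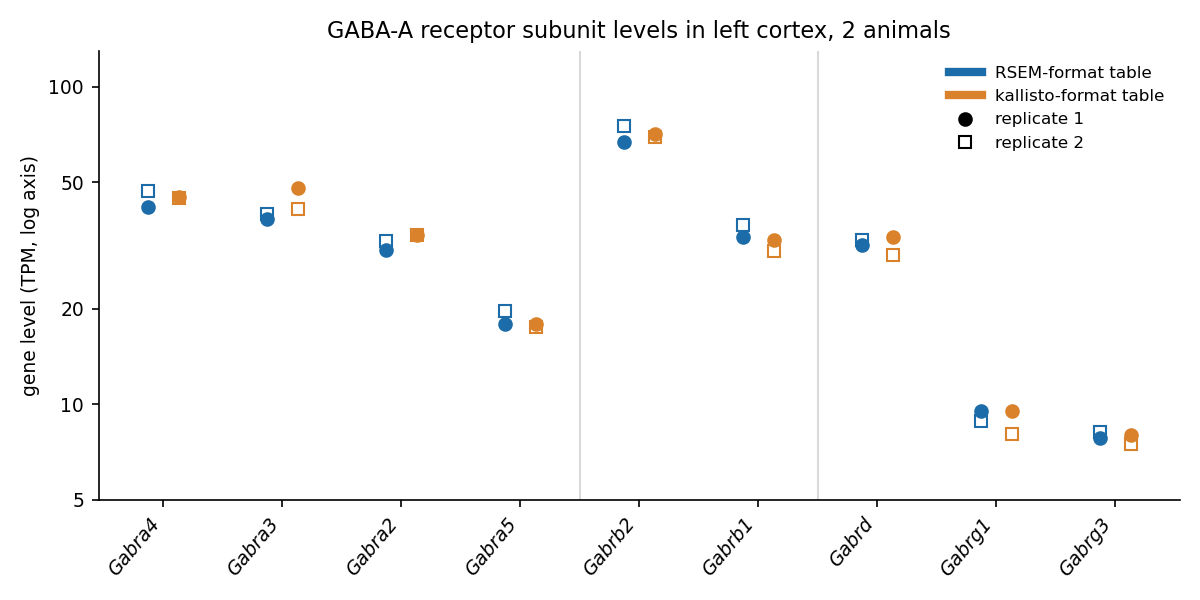
Gene level in TPM (log axis) of the 7 members and of Gabrg1 and Gabrg3, for each animal (circle, replicate 1; open square, replicate 2) in the RSEM-format table (blue) and the kallisto-format table (orange). Gabrb2 stands above the other 6 members in both tables and Gabra5 below them, while Gabrg1 and Gabrg3 lie below every member.

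The beta members stood further apart than any neighbouring alpha members. Gabrb2, the asparagine-codon beta member, was at 66.8 and 75.4 TPM, a mean of 71.1 ± 6.10 TPM. Gabrb1, the serine-codon beta subunit, was at 33.7 and 36.6 TPM, a mean of 35.1 ± 2.06 TPM, and Gabrb2 exceeded it 2.02-fold. Gabrb2 ranked above 89.7% of the detected protein-coding genes, where detected means at least 1 TPM in both libraries, and Gabrb1 above 76.5%.

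Gabrd, which takes the place of a gamma subunit in extrasynaptic receptors and partners with alpha4 in the forebrain, was at 31.7 and 33.0 TPM, a mean of 32.4 ± 0.877 TPM. It ranked above 74.6% of the detected protein-coding genes. Across all 7 members the order was Gabrb2, Gabra4, Gabra3, Gabrb1, Gabrd, Gabra2 and Gabra5. Gabrd and Gabra2 overlapped between the animals, and the other neighbours did not. These ranges are of the animals' TPM values alone and leave out the deposited credibility intervals. In the kallisto-format table Gabra2 moved above Gabrb1 and Gabrd, and the neighbours Gabra4 and Gabra3, and Gabrb1 and Gabrd, could not be told apart either.

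Whether the extrasynaptic or the synaptic members were more abundant depended on how they were added up. The 3 extrasynaptic members, Gabra4, Gabra5 and Gabrd, summed to 91.3 and 99.4 TPM, and the 2 synaptic alpha members, Gabra2 and Gabra3, to 69.1 and 72.7 TPM. The extrasynaptic sum was 1.32 times the synaptic sum in replicate 1 and 1.37 times in replicate 2, a log2 ratio of 0.43 ± 0.036. The sums hold 3 genes against 2, and on the mean of log2(TPM + 0.1) per gene the extrasynaptic members lay lower, by -0.24 ± 0.032. The extrasynaptic sum also adds Gabrd to its partner Gabra4, while the synaptic sum holds alpha members only. Among the alpha members alone, mean TPM was 44.3 for Gabra4 and 18.7 for Gabra5, against 39.2 for Gabra3 and 31.7 for Gabra2. Both sums cover the members alone and are not totals of synaptic or extrasynaptic subunits. The subunits were assigned to synapses by their usual location, which RNA levels do not measure. In tissue RNA, fewer cells of a type and less RNA per cell cannot be told apart.

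The 7 genes have 27 annotated transcripts, of which 12 held a mean of at least 10% of their gene's TPM and 15 held less. How much of a member's TPM came from transcripts that encode the full subunit varied widely between members. Full subunits were taken here as transcripts of the consensus coding set, coding annotations that the main genome databases share. These held all of the TPM of Gabra5, 92.1% ± 2.03 of that of Gabrb2, 91.7% ± 1.79 of that of Gabra3 and 89.8% ± 3.45 of that of Gabrd. They held 64.6% ± 3.48 of the TPM of Gabra4, 46.9% ± 1.82 of that of Gabrb1 and 42.5% ± 2.62 of that of Gabra2. The median over the members was 89.8%, and in the kallisto-format table it was 68.0%. The latter is the share of Gabra3. It leaves out Gabra3-202, a coding transcript outside the set that contains all 1479 coding bases of Gabra3-201. Gabra3-202 held 15.4% and 13.4% of the TPM of Gabra3 there.

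**Figure D2:**
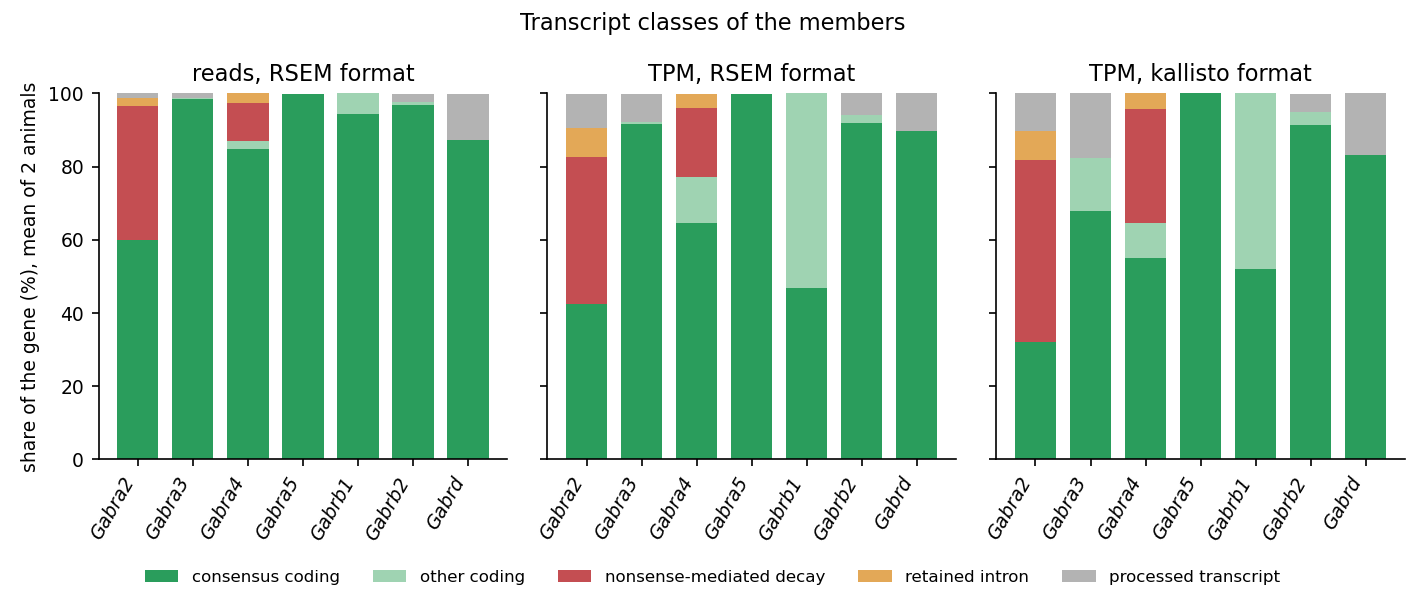
Share of each member gene (%, mean of the 2 animals) on consensus coding transcripts and on 4 other annotated transcript classes, by reads and by TPM in the RSEM-format table and by TPM in the kallisto-format table. Gabra2 and Gabra4 are the members with transcripts of the nonsense-mediated decay class, and Gabrb1 changes most between reads and TPM, from 94.5% to 46.9% on its consensus coding transcript.

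Gabra2 was divided between a coding transcript and a transcript annotated for decay. Gabra2-203, which encodes the 451-residue subunit, held 44.3% of its TPM in replicate 1 and 40.7% in replicate 2. Gabra2-204, annotated as a target of nonsense-mediated decay, the pathway that degrades messages with an early stop codon, held 39.9% and 36.8%. The authors' deposited credibility intervals overlapped in each library, at 12.2 to 14.3 TPM for Gabra2-203 against 10.1 to 13.1 TPM for Gabra2-204 in replicate 1. Within the coding sequence the transcripts differ by 61 bases at the start of exon 5 (chr5:71014576-71014636, mm10, minus strand), which Gabra2-203 includes and Gabra2-204 lacks.
Gabra2 segment: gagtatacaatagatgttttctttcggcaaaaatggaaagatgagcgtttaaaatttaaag
The segment is not a multiple of 3 bases long, and it lies upstream of the histidine codon shown above in the same exon. Gabra2-204 has no base that Gabra2-203 lacks, since it is also 40 bases shorter at the 5′ end and 1884 bases shorter at the 3′ end. Its share therefore rests on reads across the altered junction and on uneven coverage along shared bases. By reads the coding transcript held 60.9% and 59.2% of the gene. In the kallisto-format table the order was turned, with a mean of 32.0% for Gabra2-203 and 41.7% for Gabra2-204.

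Gabra4 showed a smaller share of the same kind. Gabra4-201, which encodes the 552-residue subunit, held 67.1% and 62.2% of its TPM. Gabra4-202, of the nonsense-mediated decay class, held 17.7% and 20.4% in the RSEM-format table and a mean of 31.1% in the kallisto-format table. All 1765 of its bases also occur in Gabra4-201. Gabra4-203, a transcript of 440 bases with 285 coding bases, held 10.5% and 12.7% of the TPM on 37.1 and 45.0 reads of the gene's 3251 and 3105. In the kallisto-format table Gabra4-203 held 2.87% and 6.40%, and all 440 of its bases also occur in Gabra4-201.

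For Gabrb1, TPM and reads gave different pictures. Gabrb1-202, 799 bases long and annotated with an incomplete coding end, held 51.8% and 54.4% of the TPM but 5.22% and 5.75% of the reads. Gabrb1-201, which encodes the 474-residue subunit on 13737 bases, held 48.2% and 45.6% of the TPM and 94.8% and 94.2% of the reads. Because TPM divides by length, 304 and 310 reads on the short transcript outweighed 5532 and 5079 reads on the long one. Gabrb1-202 starts within the first exon of Gabra4 on the opposite strand, where the exons of both genes share 46 bases.

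The remaining members were simpler. Gabrb2-201 held 93.5% and 90.6% of the TPM of Gabrb2, Gabrd-201 92.3% and 87.4% of that of Gabrd, and Gabra3-201 90.4% and 93.0% of that of Gabra3. The kallisto-format table gave Gabra3-201 a mean of 68.0%, with the rest on Gabra3-202, which has a longer coding sequence, and the short noncoding Gabra3-203. Gabra5 was spread over Gabra5-201 (54.5% and 49.6%) and Gabra5-202 (39.7% and 38.1%), which carry the same 1392 coding bases and differ outside them. The kallisto-format table turned this order too, with 74.6% and 55.1% on Gabra5-202. Across the 7 genes, 4 had the same leading transcript in both tables, and Gabra2, Gabra5 and Gabrb1 did not.

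A coding alternative of Gabrb2 was at a low level. Gabrb2-205 contains 114 coding bases that Gabrb2-201 lacks (chr11:42602115-42602228, plus strand), which add 38 codons in frame to the intracellular loop, the form of the subunit known as the long splice variant.
Gabrb2 segment: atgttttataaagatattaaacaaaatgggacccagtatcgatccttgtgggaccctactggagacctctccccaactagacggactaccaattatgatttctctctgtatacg
It held 2.64% and 1.42% of the TPM of Gabrb2 in the RSEM-format table and a mean of 3.57% in the kallisto-format table.

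The order of the members changed when it was read on consensus coding transcripts alone, an alternative chosen after the data were seen. Gabrb2 stayed at the top with 65.4 ± 4.16 TPM. Gabra3 came next with 35.9 ± 1.63 TPM, followed by Gabrd with 29.1 ± 0.339 TPM and Gabra4 with 28.5 ± 0.785 TPM, whose ranges overlapped. Gabra5 followed with 18.7 ± 1.27 TPM, Gabrb1 with 16.5 ± 0.325 TPM and Gabra2 with 13.5 ± 0.191 TPM. Gabra2 thus passed from above Gabra5 to below it, and Gabra4 from above Gabra3 to below it. The kallisto-format table gave the same order on these transcripts, with Gabra2 at 10.9 ± 1.28 TPM. Of the 21 pairs of members, 16 kept their order against the gene-level TPM.

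A count that uses no division of reads among transcripts was also made, as all reads of a gene per kilobase of its leading consensus coding transcript. The mean values were 1552 reads per kilobase for Gabrb2, 836 for Gabra3, 774 for Gabra4, 746 for Gabrd, 521 for Gabra2, 414 for Gabra5 and 409 for Gabrb1. Gabra3 stood above Gabra4 here as well, and Gabra2 was above Gabra5 as at the gene level. Gabrb1 was lowest by the mean only. It was at 425 and 392 reads per kilobase in replicates 1 and 2 and Gabra5 at 420 and 408, so the lower of the pair differed by animal. On the consensus coding transcripts the extrasynaptic members exceeded the synaptic alpha members by a log2 ratio of 0.63 ± 0.010, and by this count per kilobase by 0.51 ± 0.016. Both ratios count Gabrd among the extrasynaptic members.

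**Figure D3:**
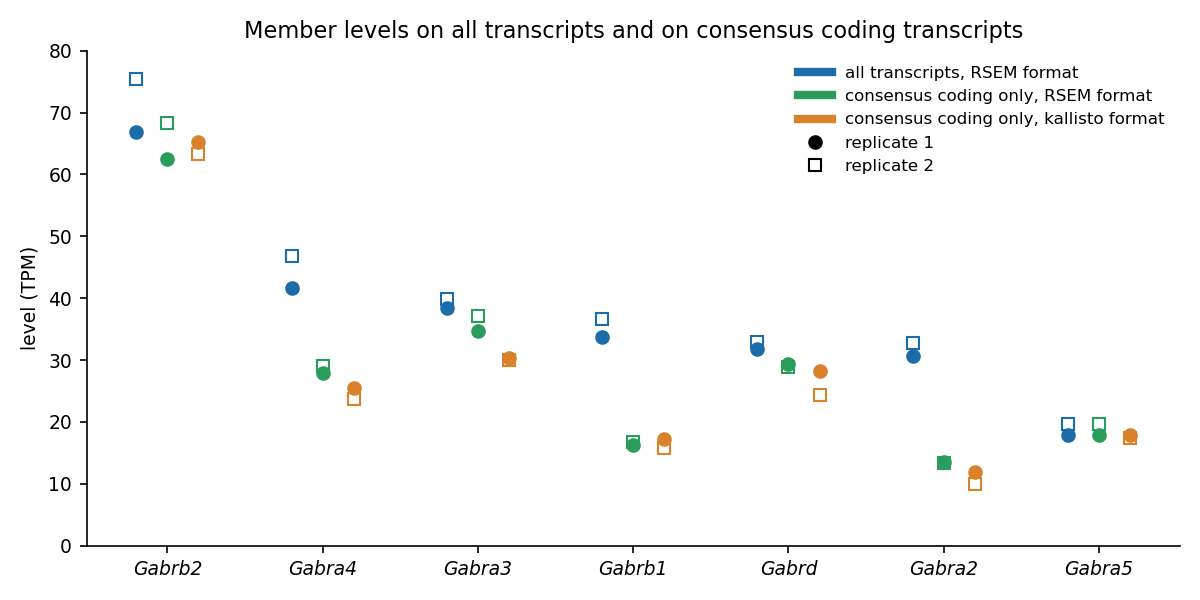
Level in TPM of the 7 members for each animal (circle, replicate 1; open square, replicate 2) on all transcripts in the RSEM-format table (blue) and on consensus coding transcripts in the RSEM-format (green) and kallisto-format (orange) tables. Gabra2 and Gabrb1 fall from means of 31.7 and 35.1 TPM to 13.5 and 16.5 TPM, below Gabra5, which stays at 18.7 TPM.

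The 2 animals were compared gene by gene on reads, scaled by trimmed mean of M-values (TMM) library sizes. A gene was called when it differed at least 2-fold, had at least 10 reads in a library, and had an exact binomial (Clopper-Pearson) interval with an error of 0.1% that excluded equal levels, which covers counting error only. Of 19484 genes tested, 237, or 1.22%, were called. All 7 members were tested and 0 were called. At any fold, that interval excluded equal levels with the higher value in replicate 2 for 4.25% of genes and in replicate 1 for 4.51%, and for 0 of the 7 members in either direction. Among the 5886 genes with a mean of at least 1000 reads, which include all 7 members, the shares were 9.31% and 9.40%. With DESeq2 size factors the interval excluded equal levels for 1 member, Gabra2, and with kallisto-format estimated counts for 1 member, Gabrb1, both with replicate 1 higher. The rule recovered 98 of 100 genes changed 2.5-fold in data simulated for this comparison of 2 libraries, and called 3 of 19149 unchanged genes. The simulated counts held counting error only, with no variation between animals, and the changed genes had a mean of at least 100 reads. How the rule fares between 2 real animals was thus not tested. The comparison is between these animals and says nothing of a condition.

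Among the members the log2 ratio of replicate 2 to replicate 1 ran from -0.12 for Gabra2 to 0.01 for Gabrb2. The median size of the ratio was 0.038, against 0.126 over all genes tested and 0.062 over the 5886 genes with a mean of at least 1000 reads. Gabra2 was lower in replicate 2 with a 95% interval of -0.19 to -0.045 (3207 and 2886 reads), and Gabrb1 with an interval of -0.13 to -0.027 (5836 and 5389 reads). The other 5 members had 95% intervals that included 0. By TMM-scaled reads 6 of the 7 members were lower in replicate 2. With reads scaled by the total alone, 4 were lower and 3 higher, and with kallisto-format estimated counts all 7 were lower. By deposited TPM all 7 were higher in replicate 2, by 0.05 to 0.18 on the log2 scale. The median over all genes tested was itself 0.13 higher in replicate 2 by TPM, so the direction for the members as a list depends on the scaling.

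**Figure D4:**
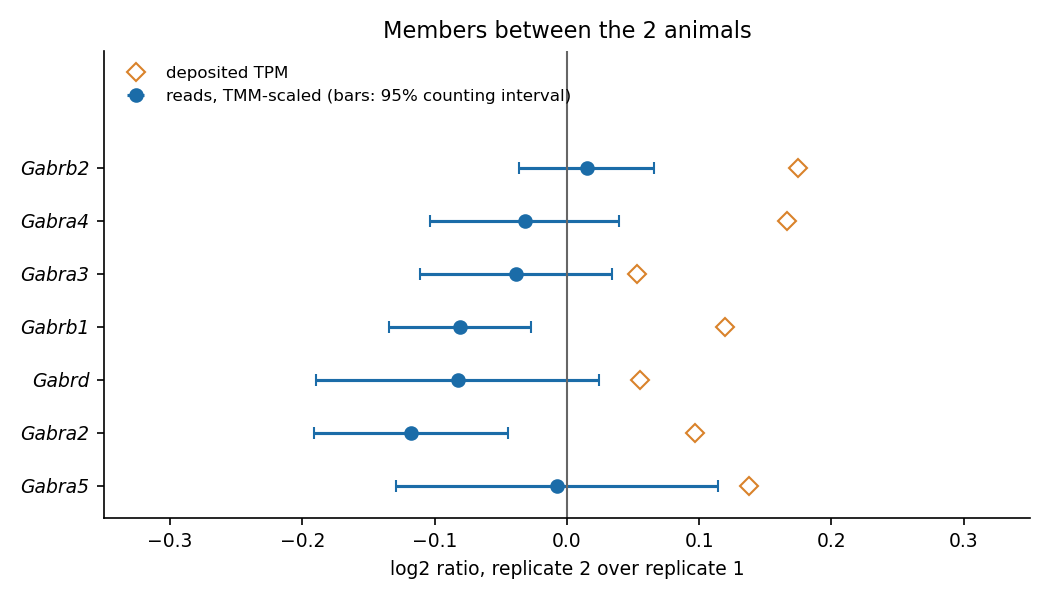
Log2 ratio of replicate 2 to replicate 1 for each member from TMM-scaled reads (blue points, bars the 95% counting interval) and from deposited TPM (orange diamonds). The read-based ratios lie between -0.12 and 0.01 and the TPM-based ratios between 0.05 and 0.18, all on the other side of 0 or further above it.

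Of the 9 other GABA-A subunit genes used for context, 3 were detected, and 0 of the 5 tested were called. Gabrg1, a gamma subunit gene next to Gabra2 on chromosome 5, was at 9.54 and 8.82 TPM, and its log2 ratio of -0.25 (95% interval -0.40 to -0.11) was the only one among them whose stricter interval excluded equal levels. Gabrg3 stood at 7.82 and 8.14 TPM. Gabrq, the theta subunit gene, was just above detection at 1.43 and 1.11 TPM. Gabre, the epsilon subunit gene, was at 0.31 and 0.22 TPM and Gabrr2, a rho subunit gene, at 0.14 and 0.42 TPM. Gabrr1 and Gabrr3 held 0 to 5 reads a library, and Gabrp, the pi subunit gene, held 0.

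Genes for the assembly, anchoring and trafficking of GABA-A receptors formed a list of 26, of which 25 were matched by symbol. All 25 were detected at a median of 48.2 TPM and 0 were called. The interval excluded equal levels for 2 of them with the higher value in replicate 2 and for 7 with the higher value in replicate 1, beside 4.25% and 4.51% of all genes tested and 9.31% and 9.40% of those with a mean of at least 1000 reads. The list's median log2 ratio was -0.007, against -0.001 over all genes tested. The 5 highest were Kif5a, a kinesin motor that carries receptors to the surface (505 ± 9.44 TPM), and Nsf, an ATPase of membrane fusion (399 ± 26.6 TPM), followed by Gabarapl1 (335 ± 19.0 TPM), Gabarap, whose protein binds gamma subunits of the receptor (101 ± 1.01 TPM), and Gabarapl2 (94.9 ± 3.32 TPM). Gphn, the gene of gephyrin, was chosen after its value was seen and stood at 24.9 and 26.7 TPM.

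The libraries held 34101499 and 32543032 reads in the RSEM-format gene tables. Excitatory neuron markers had a median log2 ratio of 0.04 and inhibitory neuron markers of -0.07, with 8 of 8 detected in each list. Markers of choroid plexus, 5 of 8 detected, were called in 8 of 8 cases, with summed levels of 560 and 109 TPM in replicates 1 and 2. Most of these sums was Ttr, at 535 and 101 TPM. Markers of thalamus and hypothalamus, 8 of 8 detected, were called in 3 of 8, with summed levels of 107 and 71.7 TPM and a median log2 ratio of -0.90. For 6 of these 8 the interval excluded equal levels with replicate 1 higher, beside 4.51% of all genes tested. Markers of striatum, 7 of 7 detected, had summed levels of 526 and 615 TPM and a median log2 ratio of 0.05. Of these 0 were called, and for 2, Penk and Rgs9, the interval excluded equal levels with replicate 2 higher. Markers of hippocampus, 4 of 7 detected, had summed levels of 70.2 and 72.7 TPM and a median log2 ratio of -0.21. Most of these sums was Wfs1, at 57.2 and 62.2 TPM. Of the hippocampus markers 1, Dsp, was called, and it was not among the detected ones, at 0.31 and 0.14 TPM. For 2, Dsp and Prox1, the interval excluded equal levels with replicate 1 higher. Of the markers of these 4 tissues 0 were at 0 reads. Astrocyte markers had summed levels of 565 and 557 TPM and a median log2 ratio of -0.14, and for 4 of 5 the interval excluded equal levels with replicate 1 higher, beside 4.51% of all genes and 9.40% of genes with a mean of at least 1000 reads. Oligodendrocyte precursor markers had a median log2 ratio of -0.1, and for 1 of 4 the interval excluded equal levels with replicate 1 higher. By TMM-scaled reads 6 of the 7 members were lower in replicate 2, and 1, Gabrb2, was higher. With reads scaled by the total alone, 4 were lower and 3 higher. Markers of cerebellar granule cells, 4 of 7 detected, had summed levels of 46.6 and 48.1 TPM and a median log2 ratio of 0.012. Among them Gabra6 and Barhl1 were at 0 reads in both libraries. In this list 0 were called, and for 1, Calb2, the interval excluded equal levels with replicate 1 higher. The part of these markers' tissues and cells in the members' ratios was not tested.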

How the data were processed

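The samples were total RNA libraries from the left cortex of 2 mice forming 1 group. Per the file headers, the authors deposited gene and transcript tables in RSEM format with expected counts, TPM, posterior mean TPM and the percent of a gene's TPM on each transcript, and a transcript table in kallisto format with estimated counts and TPM. Per a deposited text description, the build was mm10 and the annotation M21. The strand setting, like the aligner, versions and read filters, is not given in the sources used here. The credibility bounds of TPM were kept as the authors deposited them, as a signal per transcript, with no stated level. Reads from CAST alleles were counted against the mm10 reference, and the effect on the members was not tested.

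The members, lists and rules were chosen with earlier results of these data known. Levels are deposited TPM; kallisto-format transcripts were summed per gene. Expected counts were rounded to whole reads, and 0.517% and 0.500% of reads lay on entries that are not genes. Library sizes came from TMM (edgeR 4.0.16 in R 4.3.3), with 0.5 reads added for ratios; DESeq2 1.42.0 size factors, other fold and read minimums and leaving out each animal were alternatives. Intervals used scipy 1.17.1. The call rule was tested on simulated counts that held counting error only. The text names all members, the other GABA-A subunits used for context, the 5 highest trafficking genes and transcripts with at least 10% of a gene's TPM; others named by value were chosen after seeing it. The labels name separate biosamples and 1 strain-level donor. RefSeq proteins were not used here. Some further subunit and trafficking genes, and the ratio with such subunits added to the synaptic and extrasynaptic sums, are not reported here.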

Additional observations from a re-analysis of the deposited data

How the results depend on the processing

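The median level of the 7 members was 35.1 TPM. It became 80.5 TPM when TPM were rescaled to nuclear protein-coding genes, which multiplies every gene alike, and 28.5 TPM on consensus coding transcripts, and without either animal it ranged from 33.7 to 36.6 TPM. Of the 21 pairs of members, 19 kept their order in the kallisto-format table, 18 in CPM, which do not divide by length, 16 on consensus coding transcripts in either table, 17 in reads per kilobase, and 21 without either animal. The log2 ratio of extrasynaptic to synaptic members (0.43) was 0.26 in the kallisto-format table, 0.63 and 0.74 on consensus coding transcripts of the RSEM-format and kallisto-format tables, 0.51 in reads per kilobase and 0.11 without Gabra5. It was reversed to -0.095 in CPM and to -0.24 as a mean of log2 values, and without either animal it ranged from 0.40 to 0.45. All of these ratios count Gabrd among the extrasynaptic members, and none compares alpha members alone. The median share on consensus coding transcripts (89.8%) was 68.0% in the kallisto-format table and ranged from 87.4% to 90.4% without either animal. Under 6 alternatives 0 members were called, and the number whose interval excluded equal levels, 0, became 1 with DESeq2 size factors (Gabra2) and 1 with kallisto-format counts (Gabrb1), while the genes called (237) ranged from 236 to 347. The median ratio of the members was reversed from -0.04 to 0.12 by deposited TPM. Consensus coding transcripts, reads per kilobase and TPM ratios were alternatives chosen after seeing the data. Leaving out an animal left no comparison between animals, and 2 animals give an SD of 1 degree of freedom. No paired analysis was possible because there was 1 group.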

Other observations

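Genes of the family lie in clusters, whose levels are given here side by side. On chromosome 11, Gabrb2 was at 71.1 TPM, while Gabra6, which lies next to it with 0 protein-coding genes between them, had 0 reads in both animals. On chromosome 5, Gabrg1, Gabra2, Gabra4 and Gabrb1 stood at 9.18, 31.7, 44.3 and 35.1 TPM. Gabra4 and Gabrb1 overlap head to head by 196 bases. On chromosome 7, Gabrg3 was at 7.98 TPM and its neighbour Gabra5 at 18.7 TPM. On chromosome X, Gabra3 was at 39.2 TPM between Gabre at 0.27 TPM and Gabrq at 1.27 TPM. Gabrd lies on chromosome 4 with 1184 protein-coding genes between it and the nearest gene of the family. These are values of 2 animals of 1 group, set side by side with no test.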
